A study of Homo sapiens with 5 samples.

Results

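The nuclear lamina and the inner nuclear membrane were examined through the mRNA levels of 10 genes, LMNA, LMNB1, LMNB2, LBR, EMD, TMPO, SUN1, SUN2, LEMD3 and BANF1, which were chosen by gene symbol and were all found among the 26485 genes of the count table. All 10 passed the filter on low counts, which left 14187 genes for testing. The counts came from RNA-seq of 5 libraries of RPE1 cells, a widely used human line from the retinal pigment epithelium, of wild type genotype and immortalised with telomerase. Of these, 2 libraries were from cells given DMSO, the solvent, 2 from cells given doxorubicin at 0.2 μM and 1 from cells given doxorubicin at 0.34 μM, all for 18 h. Doxorubicin is a DNA intercalator that traps topoisomerase II on DNA. The doxorubicin libraries were compared with DMSO as 1 group of 3, although 0.34 μM was given to 1 library only. Joining both concentrations follows the methods of the study. The treatment protocol in the labels writes the concentrations with other numbers than the sample titles, and those of the titles are used here.

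Lamins are intermediate filament proteins that form a meshwork under the inner nuclear membrane. The B-type lamins, LMNB1 and LMNB2, keep a farnesyl anchor in the membrane, while LMNA gives rise to lamins A and C by splicing, and lamin A loses its anchor during maturation. Emerin (EMD), LAP2 (TMPO) and MAN1 (LEMD3) share the LEM domain, which binds the small DNA-bridging protein BAF (BANF1). The lamin B receptor (LBR) binds B-type lamins and the heterochromatin protein HP1, and SUN1 and SUN2 connect the lamina with the cytoskeleton. A fall of LMNB1 is widely used as a marker of senescent cells.

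Total counts were between 23773061 and 36725345 per library, and the median over all genes tested of the log2 ratio of doxorubicin to DMSO was 0.013. Of the retinal pigment epithelium markers 5 of 11 passed the filter (BEST1, MITF, OTX2, PMEL and SERPINF1), with a summed level of 54.9 to 88.0 CPM (counts scaled to the normalized library size) in DMSO and 71.8 to 81.2 CPM in doxorubicin, while RPE65, RLBP1 and TYR did not. Of 5 epithelial markers KRT8 and KRT18 passed it, with a summed level of the list of 584 to 696 CPM in DMSO and 970.2 to 1177 CPM in doxorubicin, while all 6 mesenchymal markers passed it, with 6646 to 7247 CPM in DMSO and 5524 to 6417 CPM in doxorubicin. Of 5 neuronal markers SNAP25, SYP and TUBB3 did, and the summed level of that list overlapped between the groups, with 185 to 351 CPM in DMSO and 162 to 217 CPM in doxorubicin. Of 5 blood cell markers PTPRC did, the summed level was 0.191 to 0.313 CPM in DMSO and 1.08 to 2.20 CPM in doxorubicin, and CD3E and HBB were at 0 counts. The part of other cell types in the results was not tested. Nothing in the labels says that the libraries came from separate cultures, although the study's methods call them biological replicates, so the p-values measure the spread between these libraries.

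Of the 10 genes, 3 passed the threshold of an adjusted p-value of 0.01 (edgeR's quasi-likelihood test, Benjamini-Hochberg adjustment over all genes tested), and all 3 fell after doxorubicin. These were LMNB1, TMPO and LMNB2. Over all genes, 4.02% passed the same test and 2.73% passed it with a fall. Of the 10 genes, 3 had a log2 ratio above 0, and none passed the test with a rise. Over all genes 1.29% passed with a rise, so that none among 10 genes says little. The doxorubicin libraries lay below both DMSO libraries in 6 of the 10 genes, LMNB1, TMPO, LBR, LMNB2, BANF1 and SUN2, as they did in 23.4% of all genes tested, while in 47.7% of all genes the groups did not overlap in either direction. The median log2 ratio of the 10 genes was -0.72. The log2 ratios ranged from -4.18 for LMNB1, an 18.1-fold fall, to 0.49 for LMNA, for which all but 1 doxorubicin library lay above both DMSO libraries.

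**Figure D1:**
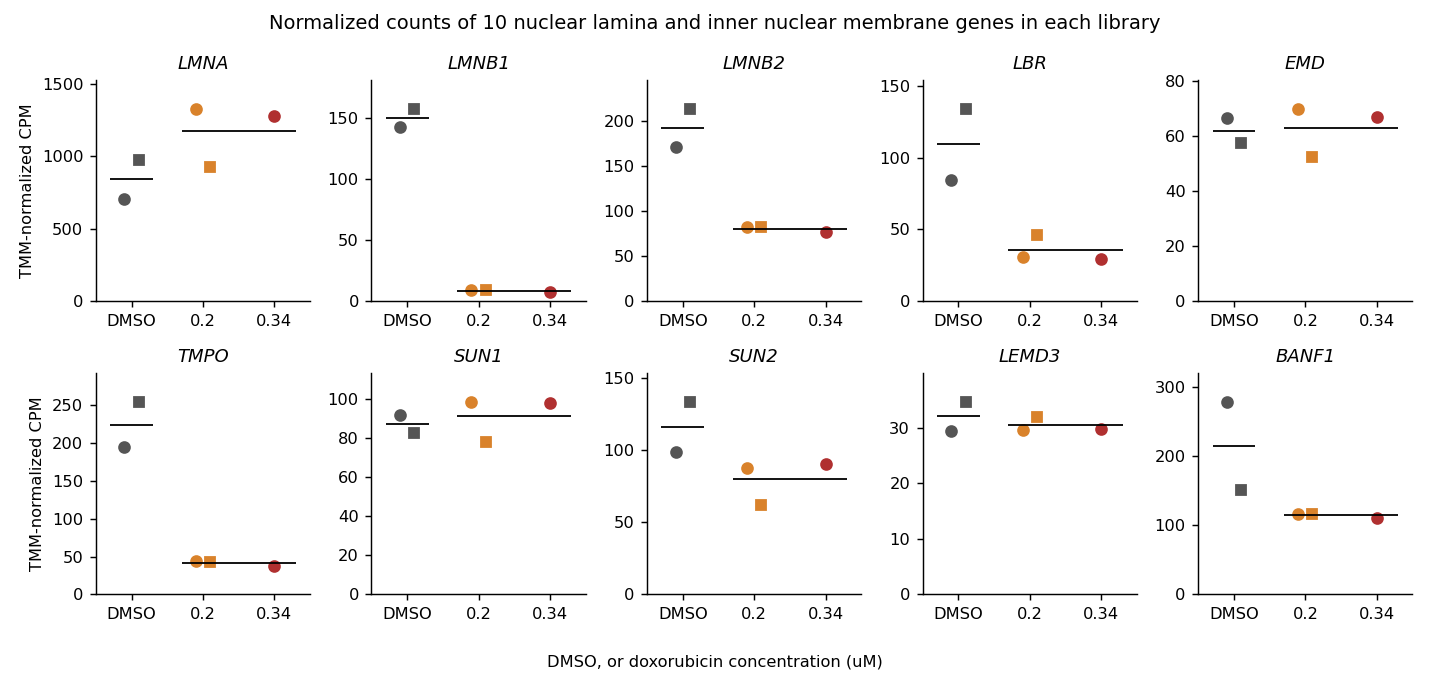
TMM-normalized CPM (vertical axes, each from 0) of the 10 genes in the 5 libraries, with circles for replicate 1, squares for replicate 2 and lines at the mean of the 2 DMSO and the 3 doxorubicin libraries. LMNB1 lies between 7.0 and 9.09 CPM in doxorubicin against 143 and 158 CPM in DMSO, while EMD, SUN1, LEMD3 and LMNA overlap between the groups.

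LMNB1 (chromosome 5 of GRCh38, 126776623 to 126837020, no other annotated gene overlapping it) encodes lamin B1. Its normalized level was 143 and 158 CPM in DMSO, 9.09 and 8.86 CPM at 0.2 μM and 7.0 CPM at 0.34 μM, from 3749, 4032, 235, 213 and 254 counts. The groups were far apart, and the DMSO libraries differed from each other by only 0.14 on the log2 scale. LMNB1 fell from 150.5 ± 10.5 CPM (SD, n = 2) to 8.31 ± 1.14 CPM (SD, n = 3), to 5.53% of its DMSO level. The log2 ratio was -4.18 (SE 0.18, edgeR adjusted p = 0.000341), with a 95% interval of -4.60 to -3.76. Among the log2 ratios of all 14187 genes tested, it was number 17 from the lowest. It passed the threshold with each library left out in turn, with log2 ratios between -4.26 and -4.06 and adjusted p-values between 0.00156 and 0.00823.

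LMNB2 (chromosome 19, 2428166 to 2456959), which encodes lamin B2, also fell. Its level was 171 and 214 CPM in DMSO, 81.9 and 82.4 CPM at 0.2 μM and 76.9 CPM at 0.34 μM. The 3 doxorubicin libraries were close to each other and all lay below DMSO. The log2 ratio was -1.26 (SE 0.15, edgeR adjusted p = 0.00422), a 2.39-fold fall, and the gene was number 651 from the lowest. This call rested on the whole set of libraries: it held without DMSO replicate 1 (adjusted p = 0.00832) but was lost without DMSO replicate 2 (0.0154), without replicate 1 (0.0256) or 2 (0.0181) of 0.2 μM and without the 0.34 μM library (0.0311). The log2 ratio stayed between -1.42 and -1.10 in these fits. A microRNA gene, MIR7108, lies within LMNB2.

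LMNA (chromosome 1, 156082573 to 156140081) encodes lamins A and C, which the counts do not separate. Its level was 705 and 975 CPM in DMSO, 1329 and 923 CPM at 0.2 μM and 1277 CPM at 0.34 μM. The groups overlapped, since replicate 2 of 0.2 μM lay below DMSO replicate 2. LMNA had a log2 ratio of 0.49 (SE 0.24, edgeR adjusted p = 0.219), with a 95% interval of -0.08 to 1.05, so that a difference was not detectable with these replicates. With each library left out it was between 0.27 and 0.72 and passed in none of the fits.

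The balance of the lamin mRNAs was then compared within each library. The ratio of LMNA to LMNB1 normalized counts was 4.93 and 6.17 in DMSO, 146 and 104 at 0.2 μM and 183 at 0.34 μM. On the log2 scale this ratio was 2.46 ± 0.23 (SD, n = 2) in DMSO and 7.14 ± 0.41 (SD, n = 3) in doxorubicin, a difference of 4.67. The exact permutation test over the 5 libraries (two-sided, the one-sided value doubled) gave p = 0.2. This is the smallest value that doubling allows with 10 splits, and this design cannot reach 0.05. Between the B-type lamins, the ratio of LMNB2 to LMNB1 counts was 1.19 and 1.35 in DMSO and 9.01, 9.30 and 10.98 in doxorubicin, without overlap. Scaled by the length of the MANE Select transcript (3178 bases for LMNA, 2890 for LMNB1 and 4634 for LMNB2), LMNB1 made up 16.1% and 13.4% of the summed lamin level in DMSO, against 0.716% and 0.984% at 0.2 μM and 0.575% at 0.34 μM. The share of both B-type lamins was 28.0% and 24.7% in DMSO and between 4.52% and 6.69% in doxorubicin. The summed lamin level itself overlapped between the groups, with 308 and 408 normalized CPM per kilobase (FPKM) in DMSO and 439, 311 and 421 FPKM in doxorubicin. The scaling takes 1 transcript for each gene and the shares depend on it.

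**Figure D2:**
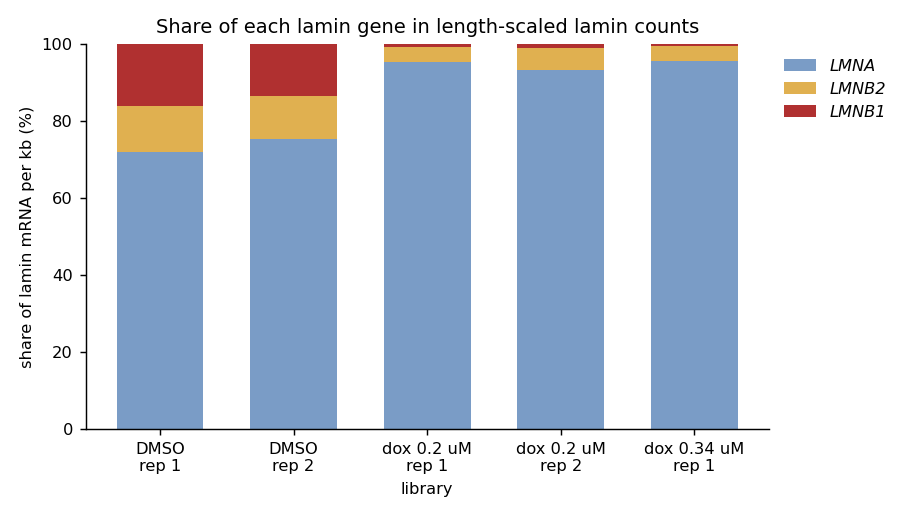
Share (%) of LMNA, LMNB2 and LMNB1 in the summed length-scaled level of the lamin genes in each of the 5 libraries. B-type lamins take 28.0% and 24.7% in the DMSO libraries and 4.74%, 6.69% and 4.52% in the doxorubicin libraries.

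Among the LEM proteins and their partner, TMPO fell after doxorubicin, BANF1 lay below DMSO without passing the threshold, and the groups of EMD and LEMD3 overlapped. TMPO (chromosome 12, 98515573 to 98550351) encodes the LAP2 proteins, some in the inner membrane and LAP2α in the nucleoplasm, which the counts do not separate. Its level was 195 and 254 CPM in DMSO, 44.1 and 43.3 CPM at 0.2 μM and 38.2 CPM at 0.34 μM. All doxorubicin libraries were far below both DMSO libraries. TMPO fell by 2.42 on the log2 scale (SE 0.17, edgeR adjusted p = 0.000796), to 18.6% of the DMSO level, and was number 181 from the lowest. It passed the threshold with each library left out in turn (adjusted p between 0.00392 and 0.00823).

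TMPO overlaps its antisense gene TMPO-AS1. The library kit was stranded, but no source used here says whether the counting used the strand, so that reads of the pair may be mixed. TMPO-AS1 was far below TMPO in every library, with 234 and 311 counts against 5105 and 6488 under DMSO, 30 and 55 against 1141 and 1041 at 0.2 μM and 23 against 1385 at 0.34 μM. Its log2 ratio was -2.97 (SE 0.50, edgeR adjusted p = 0.0132) and did not pass the threshold in edgeR, while it did in DESeq2 (adjusted p = 1.1e-07) and limma voom (adjusted p = 0.00826). The counts of TMPO and BANF1 are also uncertain where reads match their annotated pseudogenes.

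BANF1 (chromosome 11, 66002503 to 66004149) was the gene for which the DMSO libraries differed most, with 278 and 151 CPM, while the doxorubicin libraries were close together at 116 and 117 CPM (0.2 μM) and 111 CPM (0.34 μM). All doxorubicin libraries lay below DMSO, by little against DMSO replicate 2. At -0.90 the log2 ratio (SE 0.25, edgeR adjusted p = 0.0594) did not pass the threshold. Leaving out DMSO replicate 1 gave -0.41 and leaving out DMSO replicate 2 gave -1.30, so that its size depended on which control was used. DESeq2 called it (adjusted p = 0.00772), and over all alternatives the adjusted p was between 0.00772 and 0.275.

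EMD (chromosome X, 154379295 to 154381523), which encodes emerin, had 66.5 and 57.5 CPM in DMSO, 70.0 and 52.3 CPM at 0.2 μM and 66.9 CPM at 0.34 μM. LEMD3 (chromosome 12, 65169583 to 65248355), whose product MAN1 also restrains SMAD signalling, had 29.5 and 34.7 CPM in DMSO, 29.6 and 32.0 CPM at 0.2 μM and 29.8 CPM at 0.34 μM. For both genes the groups overlapped. The log2 ratio of EMD was 0.03 (SE 0.18, 95% interval -0.40 to 0.45) and that of LEMD3 -0.08 (SE 0.16, 95% interval -0.45 to 0.30). Changes of a size within these intervals remain possible, and the intervals are not limits of detection.

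LBR (chromosome 1, 225401502 to 225428821) combines the anchoring of B-type lamins with a sterol C14 reductase domain. Its level was 84.5 and 134 CPM in DMSO, 31.0 and 46.1 CPM at 0.2 μM and 29.3 CPM at 0.34 μM. The groups did not overlap, and replicate 2 was the higher library in both pairs. The log2 ratio of -1.63 (SE 0.27, edgeR adjusted p = 0.0128) lay just outside the threshold, and it was larger in size than that of LMNB2, which passed. The DMSO libraries differed by 0.67 on the log2 scale for LBR and by 0.32 for LMNB2. With each library left out, LBR stayed between -1.93 and -1.27 and passed in none of the 5 fits. DESeq2 called it (adjusted p = 1.7e-06). So did edgeR without the filter on low counts (adjusted p = 0.00187). With a term for the replicate number, on the DMSO and 0.2 μM libraries only, edgeR also called it (adjusted p = 9.2e-05). The labels state no such pairing. The fits without the filter and with the term called 1020 and 1249 of all genes, against 571.

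SUN1 and SUN2 encode the inner membrane side of the bridge to the cytoskeleton. SUN1 (chromosome 7, 815557 to 874934) had 91.4 and 82.6 CPM in DMSO, 98.2 and 77.9 CPM at 0.2 μM and 97.7 CPM at 0.34 μM, and its groups overlapped (log2 ratio 0.07, SE 0.16, 95% interval -0.32 to 0.45). SUN2 (chromosome 22, 38734734 to 38755998) had 98.8 and 133 CPM in DMSO, 87.4 and 62.2 CPM at 0.2 μM and 90.6 CPM at 0.34 μM. The doxorubicin libraries lay below DMSO, but the difference did not pass the threshold (log2 ratio -0.53 with an SE of 0.22, edgeR adjusted p = 0.153). SUN2 overlaps GTPBP1, whose groups overlapped (log2 ratio -0.18, SE 0.18). The ratio of SUN1 to SUN2 counts was 0.925 and 0.620 in DMSO and between 1.08 and 1.25 in doxorubicin. The exact permutation test gave p = 0.2, the smallest value that the doubled one-sided value can take with 10 splits.

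**Figure D3:**
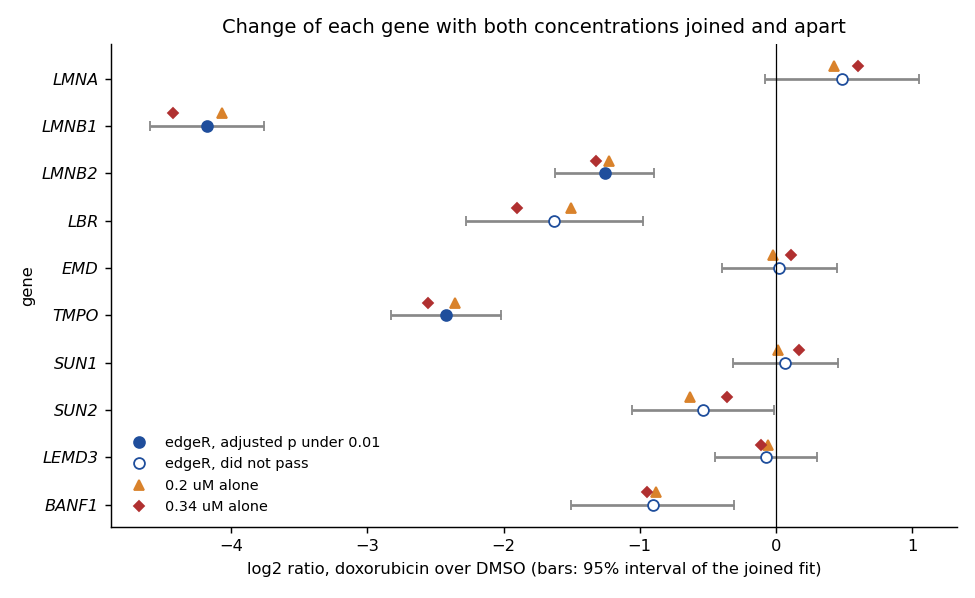
Log2 ratio (doxorubicin over DMSO, horizontal axis) of each gene, with circles and 95% intervals from the fit of 3 doxorubicin libraries against 2 DMSO libraries (filled where the adjusted p was under 0.01), triangles for 0.2 μM and diamonds for 0.34 μM. LMNB1 (-4.18), TMPO (-2.42) and LMNB2 (-1.26) are filled, and the intervals of LMNA, EMD, SUN1 and LEMD3 include 0.

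Levels between genes were compared on the length-scaled level (FPKM). In DMSO the order of the means was BANF1 (294 FPKM), LMNA (264), TMPO (54.3), LMNB1 (52.1), EMD (48.4), LMNB2 (41.5), SUN2 (29.3), LBR (29.2), SUN1 (21.7) and LEMD3 (6.71). Neighbours did not overlap between LMNA and TMPO, between LMNB2 and SUN2 and between SUN1 and LEMD3, and in the other places their libraries overlapped. In doxorubicin LMNA came first (370 FPKM), followed by BANF1 (157), EMD (49.2), SUN1 (22.8), SUN2 (20.2), LMNB2 (17.3), TMPO (10.1), LBR (9.46), LEMD3 (6.37) and LMNB1 (2.88). LMNB1 thus stood in place 4 of the 10 genes in DMSO and in place 10 in doxorubicin, where its highest library (3.14 FPKM) was below the lowest of LEMD3 (6.19 FPKM). Only the neighbours SUN1 and SUN2, SUN2 and LMNB2, and TMPO and LBR overlapped in doxorubicin.

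The response was next compared between the concentrations. With 0.2 μM alone against DMSO (a contrast in a fit with 3 conditions), LMNB1 had a log2 ratio of -4.07 (adjusted p = 0.00177 from edgeR) and TMPO one of -2.36 (adjusted p = 0.0037), and these 2 passed the threshold, as did 1.21% of all genes. With 0.34 μM alone, the values were -4.43 for LMNB1 (adjusted p = 0.0053) and -2.56 for TMPO (adjusted p = 0.0113), and only LMNB1 passed, as did 0.627% of all genes. The comparisons share the DMSO libraries. Over all genes, the 0.34 μM library lay nearer to replicate 1 of 0.2 μM (chi-square per degree of freedom 9.01) than to replicate 2 (74.1), and the 0.2 μM replicates were as far apart (75.3). Replicate 2 of 0.2 μM thus stood apart from the other doxorubicin libraries, and without it LMNB1 and TMPO passed the threshold against DMSO, while LMNB2 did not. The DMSO replicates were also apart (117). Replicate 2 of 0.2 μM lay nearer to DMSO replicate 2 (173) than to DMSO replicate 1 (218). For replicate 1 of 0.2 μM the nearer was DMSO replicate 1 (189 against 227). The only 0.34 μM library lay near replicate 1, so the comparison of concentrations is mixed with this split. Between 0.34 and 0.2 μM, 0 of the 10 genes passed in edgeR or DESeq2, and 0 had an unadjusted p under 0.05. The same comparison called 0% of all genes with either tool, and 0.155% (edgeR) and 0.159% (DESeq2) of them had an unadjusted p under 0.05. The 0.34 μM library was below both 0.2 μM libraries for LMNB1, LMNB2, LBR, TMPO and BANF1, above both for SUN2 and between them for the other 4. For LMNB1 the log2 difference was -0.36 (SE 0.26), with a 95% interval of -0.98 to 0.26. For LBR it was -0.39 (SE 0.39), with an interval of -1.30 to 0.52. These intervals do not show that the concentrations act alike.

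The calls of LMNB1 and TMPO did not rest on a single library, whereas that of LMNB2 was lost without any of 4 libraries. The plot of adjusted p-values with each library left out shows LMNB1 and TMPO below 0.01 in every fit, LMNB2 below it only with all libraries or without DMSO replicate 1, and LBR and BANF1 above it throughout. With DESeq2, 5 of the 10 genes passed, LMNB1, TMPO, LMNB2, LBR and BANF1, all with a fall, where 14.1% of all genes passed and 7.72% passed with a fall. With limma voom the same 3 genes as in edgeR passed, as did 3.71% of all genes. With a library left out the share of all genes that passed was 1.48% without DMSO replicate 1, 0.335% without DMSO replicate 2, 1.48% and 1.31% without replicates 1 and 2 of 0.2 μM and 1.28% without the 0.34 μM library.

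**Figure D4:**
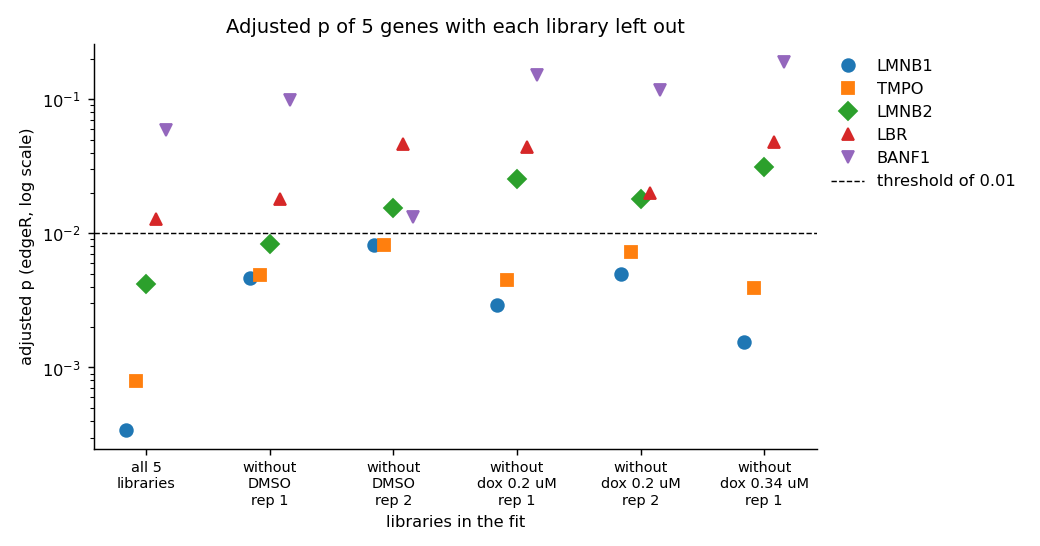
Adjusted p (edgeR, logarithmic axis) of LMNB1, TMPO, LMNB2, LBR and BANF1 with all 5 libraries and with each library left out, with a dashed line at 0.01. LMNB1 ranges from 0.000341 to 0.00823 and LBR from 0.0128 to 0.048.

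Other genes of the nuclear envelope were taken from 6 lists, in which 59 of 64 genes were tested. Of these, 8 passed the threshold (13.6%, against 4.02% of all genes), 7 with a fall and 1 with a rise, and the median log2 ratio was -0.21. Without DMSO replicate 2, 0 of these 59 genes passed, without the 0.34 μM library 1 did, and 2 did when any of the other libraries was left out. The lists were chosen with earlier results of these data known.

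In a list of further inner nuclear membrane genes, 2 of 12 passed, both with a fall, and the median was -0.39. NEMP1, a multi-pass protein of the inner membrane, fell from 55.2 and 64.1 CPM in DMSO to 16.6 and 16.5 CPM at 0.2 μM and 13.8 CPM at 0.34 μM (log2 ratio -1.93 with an SE of 0.17, edgeR adjusted p = 0.0015). NRM, which encodes nurim, fell by 1.35 on the log2 scale (SE 0.17, adjusted p = 0.00508). The remaining 10 did not pass. Among KASH proteins, which pair with SUN proteins across the envelope, and torsin ATPases, 1 of 9 passed and the median was -0.21. SYNE2, which encodes nesprin-2, fell from 72.3 and 78.4 CPM to 25.5, 23.3 and 23.9 CPM (log2 ratio -1.63, SE 0.14, adjusted p = 0.0015). With the groups not overlapping either, SYNE1 (nesprin-1), named after its values were seen, had a log2 ratio of the other sign, 0.57 (SE 0.18), and did not pass (adjusted p = 0.083).

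Among 5 enzymes that modify the ends of lamins, 1 passed. ICMT, which methylates the farnesylated end, fell from 209 and 250 CPM to 112, 109 and 103 CPM (log2 ratio -1.09 with an SE of 0.15, edgeR adjusted p = 0.00625). ZMPSTE24, the protease that cuts prelamin A, was named after its values were seen and had a log2 ratio of 0.01 (SE 0.14). Among chromatin partners of the lamina, 3 of 12 passed, all with a fall, and the median was -0.71. CBX5 and CBX1, which encode HP1 proteins of the kind that LBR binds, fell by 1.52 (SE 0.18, adjusted p = 0.00384) and by 1.17 (SE 0.16, adjusted p = 0.0069) on the log2 scale. PSIP1, a chromatin reader, fell by 1.72 (SE 0.25, adjusted p = 0.00808), although its DMSO libraries lay at 348 and 202 CPM. VRK1, a kinase that releases BAF from DNA, was named after its values were seen and did not pass (log2 ratio -1.51, SE 0.29, adjusted p = 0.0193).

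None of 11 genes of the ESCRT machinery and its helpers, which reseal the envelope, passed in edgeR or DESeq2, and their median was 0.09. The largest differences in that list were those of SPAST (-0.47, SE 0.16) and CHMP6 (0.46, SE 0.24). In a list of 10 sterol enzymes around the step that LBR can catalyse, 1 passed and the median was -0.08. This was TM7SF2, the other sterol C14 reductase, which rose from 14.04 and 19.2 CPM in DMSO to 52.6 and 54.9 CPM at 0.2 μM and 58.9 CPM at 0.34 μM (log2 ratio 1.74 with an SE of 0.19, edgeR adjusted p = 0.00336). TM7SF2 did not pass with any library left out, and neither did NRM, ICMT, CBX5, CBX1 or PSIP1. With a doxorubicin library left out, NEMP1 passed in each fit and SYNE2 in all but that without the 0.34 μM library. The direction of TM7SF2 held in all libraries.

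**Figure D5:**
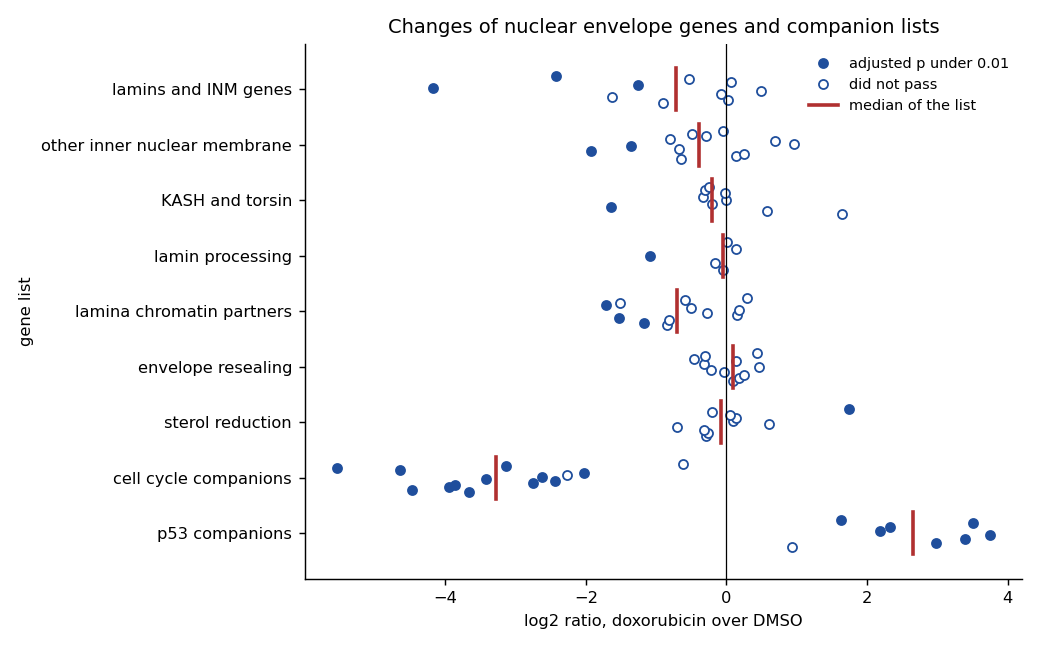
Log2 ratio (doxorubicin over DMSO, horizontal axis) of each tested gene in the 10 lamina and inner nuclear membrane (INM) genes, the 6 further envelope lists and the 2 companion lists, filled where the adjusted p was under 0.01, with the list's median as a line. The medians of the envelope lists lie between -0.72 and 0.09, that of the cell cycle genes at -3.28 and that of the p53 targets at 2.66.

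Genes of dividing cells were read beside the lamina genes. In a companion list of 14 cell cycle genes 12 passed, all with a fall, and the median was -3.28, against 2.73% of all genes that passed with a fall. MCM2 (log2 ratio -2.27, SE 0.36) and TYMS (-0.61, SE 0.31) did not pass, and the groups of TYMS overlapped. Of these 14 genes, 11 passed without DMSO replicate 1, 4 without DMSO replicate 2, 7 without replicate 1 and 8 without replicate 2 of 0.2 μM, and 7 without the 0.34 μM library. MKI67, a marker of dividing cells, had 1415 and 1104 CPM in DMSO and 48.1, 65.2 and 37.4 CPM in doxorubicin. Its log2 ratio of -4.65 (SE 0.28) and that of CCNA2, which encodes cyclin A2, of -3.95 (SE 0.19) lay on either side of that of LMNB1. PLK1 and BUB1, kinases of mitosis, had log2 ratios of -5.53 (SE 0.16) and -4.47 (SE 0.24). Of 8 targets of p53, 7 passed, all with a rise, with CDKN1A at 3.39 (SE 0.23), FDXR at 3.75 (0.33), BBC3 at 2.98 (0.28) and SESN1 at 2.33 (0.23) on the log2 scale, against 1.29% of all genes that passed with a rise. That count depended on the controls, with 2 of the 8 passing without DMSO replicate 1 and 1 without DMSO replicate 2, against 6, 4 and 6 without replicates 1 and 2 of 0.2 μM and the 0.34 μM library. The part of the cell cycle in the changes of the lamina genes was not tested, and in bulk RNA fewer cells of a kind and less RNA per cell cannot be told apart.

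Since LMNB1, TMPO and LMNB2 fell together, the bases before their starts were read from RefSeq promoter windows on GRCh38 (250 bases before to 50 after the start). Of the 10 genes 9 had a window, and in 7 of them a window opened at the start of the MANE Select transcript and was searched on both strands for TTTGAA or TTCGAA (the CHR element of cell cycle genes), for TTCCCGC or TTGGCGC (E2F sites) and for CCAAT (the NF-Y box). LMNB2 and SUN2 held a CHR match, as did 16.7% of 27324 promoters, LEMD3 and BANF1 held an E2F match, as did 9.29%, and LMNB1, EMD, TMPO, SUN2 and LEMD3 held CCAAT, as did 35.7%. For genes outside the 10, the window furthest upstream was taken, whatever its transcript. The shares over all promoters thus rest on starts chosen by another rule. The reverse complement of CCAAT can overlap TTGGCGC. The stretches of the 3 genes that passed the threshold are printed 5′ to 3′ with matches in capitals, for TMPO up to 18 bases before the start, where another transcript begins, and for LMNB1 only around its match (CCAAT on the reverse strand, 138 bases before the start), because an exon of another transcript covers the rest.
LMNB1, chr5:126776986-126777015, plus strand: tgcctgctccccATTGGcccatggtagtca
TMPO, chr12:98515340-98515572, plus strand: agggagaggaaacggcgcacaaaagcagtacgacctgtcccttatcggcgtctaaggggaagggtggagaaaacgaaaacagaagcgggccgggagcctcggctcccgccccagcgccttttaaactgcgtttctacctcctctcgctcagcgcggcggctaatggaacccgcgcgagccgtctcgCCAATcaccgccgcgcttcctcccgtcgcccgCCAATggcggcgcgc
LMNB2, chr19:2456960-2457209, minus strand: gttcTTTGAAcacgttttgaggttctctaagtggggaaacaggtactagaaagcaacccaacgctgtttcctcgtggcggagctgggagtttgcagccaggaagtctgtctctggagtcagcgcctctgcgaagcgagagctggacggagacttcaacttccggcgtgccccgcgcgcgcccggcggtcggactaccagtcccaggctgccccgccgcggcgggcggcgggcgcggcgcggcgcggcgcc
In TMPO the CCAAT matches begin 64 and 32 bases before the start, and in LMNB2 the TTTGAA match begins 246 bases before it. From 100 bases before to 50 after the start, 0 of the 7 genes held a CHR or an E2F match. Over all promoters these shares were 7.46% and 5.03%. TMPO, SUN2 and LEMD3 held CCAAT in that window, as did 22.1% of all promoters. Matches were thus held both by genes that fell and by genes that did not pass the threshold.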

How the data were processed

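The authors deposited raw counts per gene for 5 libraries, from poly-A RNA read in paired ends, mapped to hg38 with STAR with iGenomes as annotation and featureCounts of Rsubread as counter. For versions, strand setting and reads with several matches, nothing was given in the sources used here. A table of the authors' own DESeq2 comparison, with the mean, fold change, statistic and p-values of genes that passed, was not used.

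These counts were tested in R 4.3.3: 3 doxorubicin against 2 DMSO libraries by the quasi-likelihood method of edgeR 4.0.16 after TMM normalization and default filtering (minimum count 10, minimum total 15), at a threshold of 0.01 on the adjusted p. DESeq2 1.42.0 and limma 3.58.1 were alternatives. SE denotes the standard error, taken as the size of the log2 ratio over the root of F. CPM values are TMM-normalized. The fits were tested on simulated data. The libraries of each pair differed by more than sampling noise (chi-square per degree of freedom 117 for DMSO and 75.3 for 0.2 μM).

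Named were all 10 genes and, of each further list, the genes past the threshold (at most 4) or otherwise the 2 with the largest change. The genes and lists were chosen with earlier results of these data known. Positions and promoters are from RefSeq (GRCh38.p14) and transcript lengths from GENCODE. The alternatives were the tool, normalization, filter, threshold, dose grouping, thinning, each library left out, a replicate block and the promoter window.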

Additional observations from a re-analysis of the deposited data

How the results depend on the processing

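The count of 3 genes was 5 with DESeq2, 1 with 0.34 μM alone against DMSO, and 2 to 3 with a library left out, and stayed within 2 to 4 in the other fits. Over all genes, 571 passed. This count was 2026 with DESeq2, 1020 without the filter, 1927 at a threshold of 0.05, 171 with 0.2 μM and 89 with 0.34 μM alone, and 49 to 215 with a library left out. Of the further envelope genes 8 passed, and 0 to 2 did with a library left out. Without a DMSO library, the lone control is assumed to vary like the other libraries. The labels state no pairing of same-numbered DMSO and 0.2 μM libraries, and the main test used none. Their differences correlated over genes (r = 0.528), and with a replicate block on these 4 libraries 4 lamina genes and 1249 genes in all passed, against 2 and 178 without the block. The 4 included LBR (-1.49).

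The sign of 3 genes near 0 turned. EMD was -0.019 with 0.2 μM alone, -0.026 with the replicate block, -0.013 on those libraries without it, and between -0.091 and 0.15 with a library left out. With a library left out, SUN1 lay between -0.018 and 0.17 and LEMD3 between -0.20 and 0.028, both turning without DMSO replicate 2. Of 160 alternative results of single genes, 139 kept direction and side of the threshold, and LMNB1 did in all 16. These are not separate fits. The looser threshold reused the main fit. Leaving out the 0.34 μM library and leaving out the replicate block gave the same fit, which was counted under both names. The tally thus counts some fits more than once. The cause of the changes of sign or side was not tested. The LMNA to LMNB1 difference stayed between 4.48 and 4.89. The intervals of LMNA, EMD, SUN1 and LEMD3 include 0 and do not show that these genes were unchanged.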
